A study of Homo sapiens with 20 samples.

Results

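The comparison of low-dose Dyngo-4a with DMSO uses 8 of the 20 libraries of the series, taken by their labels. Earlier results of these data were known when the comparison was chosen. Cells of 4 libraries received 1 µM Dyngo-4a (the low dose) and cells of 4 libraries received the vehicle DMSO, both for 24 h. All were IMR-32, an established human neuroblastoma line labelled as wild type, neuroblast and batch 1, so each result describes a single cell line. Beside them, and only where named, stand 3 further groups of 4 libraries of the same line and time: Dyngo-4a at 2.26 µM (the high dose), the CHK1 inhibitor prexasertib at 2 nM, and prexasertib with Dyngo-4a, for which the sources used here give no doses. The labels do not state whether libraries of a group were grown apart, and the p-values therefore describe the spread among these libraries alone.

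Dyngo-4a blocks dynamins, the GTPases that pinch clathrin-coated vesicles off the plasma membrane. The gene groups that moved at the low dose belong in part to well-known programmes. The hypoxia response is run by HIF transcription factors, which prolyl hydroxylases mark for destruction when oxygen and iron are at hand, and its targets include most enzymes of glycolysis. The antioxidant response is run by NRF2, which the adaptor KEAP1 holds down in unstressed cells. CDKN1A, whose product p21 inhibits cyclin-dependent kinases, and several death receptors and damage response genes form another programme that is used when cells stop dividing.

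HIF proteins are known to recognise ACGTG or GCGTG, and NRF2 with small MAF partners TGACNNNGC. Both were searched on both strands in the 250 bases before the start of each gene, in promoter sequences from RefSeq (GRCh38.p14). The windows of 3 genes that rose and of 1 that fell are shown with these letters in capitals. These 4 were picked from the 13 called genes that kept their calls whichever library was left out, and each holds a match. RPS27L and PURPL, also among the 13, held no match to either set of letters. The first window shown holds the promoter of FAM162A, a mitochondrial protein of the hypoxia response, at chr3:122383932-122384181 on the plus strand. PGK1 (phosphoglycerate kinase) and LDHA (lactate dehydrogenase A) are shown at chrX:78103998-78104173 and chr11:18394313-18394387, both on the plus strand and only up to the first base that GENCODE 29 places in an exon. GCLM, the modifier subunit of glutamate cysteine ligase, which begins the making of glutathione, is shown at chr1:93909431-93909680 on the minus strand. In the first 3 the capitals mark ACGTG or GCGTG on either strand, and in GCLM they mark TGACNNNGC on the opposite strand.
FAM162A: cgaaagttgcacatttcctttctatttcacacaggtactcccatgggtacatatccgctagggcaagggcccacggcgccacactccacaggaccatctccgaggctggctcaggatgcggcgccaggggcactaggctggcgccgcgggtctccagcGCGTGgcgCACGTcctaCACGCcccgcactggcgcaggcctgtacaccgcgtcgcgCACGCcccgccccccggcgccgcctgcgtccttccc
PGK1: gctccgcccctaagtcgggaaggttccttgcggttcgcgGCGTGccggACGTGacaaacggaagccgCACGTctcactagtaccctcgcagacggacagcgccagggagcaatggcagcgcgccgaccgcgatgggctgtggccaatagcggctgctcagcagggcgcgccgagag
LDHA: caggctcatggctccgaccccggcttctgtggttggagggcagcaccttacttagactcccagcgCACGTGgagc
GCLM: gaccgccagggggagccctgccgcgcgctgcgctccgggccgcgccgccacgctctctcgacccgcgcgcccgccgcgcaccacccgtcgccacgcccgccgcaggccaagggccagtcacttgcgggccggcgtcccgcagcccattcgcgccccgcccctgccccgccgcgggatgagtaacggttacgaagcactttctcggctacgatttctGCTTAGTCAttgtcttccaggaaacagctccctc

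Whole windows of FAM162A, PGK1, LDHA and the aldolase ALDOC held 4, 3, 5 and 5 matches to ACGTG or GCGTG. Here CACGTG counts once on each strand. In the same order, 6, 74, 175 and 250 bases of these windows lay in exons of GENCODE. The ALDOC window, and so each of its matches, thus lay wholly within annotated exons. GCLM held 1 match to TGACNNNGC, 34 bases before the start, and 2 to the hypoxia letters, which did not overlap it. These letters are common: 43.1% of 27303 RefSeq promoters and 58.8% of the 10001 promoters of tested genes held ACGTG or GCGTG. Among genes called higher in the low dose 14 of 23 promoters held them, or 60.9%. ACGTG alone was in 9 of these 23 (39.1%), in 0 of 9 promoters of genes called lower and in 23.9% of those of tested genes. That contrast was not seen in the larger sets called when replicate number was also fitted, as described below. There ACGTG was in 25 of 90 promoters of genes called higher (27.8%) and in 28 of 109 of genes called lower (25.7%). ACGTG or GCGTG was in 56.7% and 66.1% of these promoters, in the same order. Promoters of the hypoxia response list held ACGTG or GCGTG in 18 of 24, or 75.0%, and those of the glycolysis list in 11 of 21, or 52.4%. TGACNNNGC was in 11.0% of all promoters, in 12.1% of those of tested genes, and in 5 of 19 of the NRF2 list, or 26.3%, with 20.8%, 19.0% and 21.2% in the hypoxia response, glycolysis and proteasome lists. The window of NQO1 held no match to TGACNNNGC and that of PDK1 none to the hypoxia letters. All 250 bases of the NQO1 window also lay in exons of GENCODE. Sequence before the annotated transcript of NQO1 was therefore not searched, and whether it holds a match was not tested.

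Library totals were 4491004 to 6366574 counts in the low dose and 3960885 to 6448029 in DMSO, with 18122 to 19402 genes detected. Across genes, libraries of a group had Pearson's r of 0.974 to 0.981, and 13729 of 58787 genes had enough counts to be tested. Of the variance among the 8 libraries, 24.2% lay on a first principal component that set replicates 1 and 3 apart from replicates 2 and 4 in both groups. On the second, with 17.9%, the low-dose libraries (5.51 to 29.04) did not overlap the DMSO libraries (-26.1 to 1.78). The summed neuroblast markers took 0.719% to 0.759% of counts in the low dose and 0.69% to 0.754% in DMSO (two-sided exact permutation p = 0.171). Mesenchymal markers took 0.0682% to 0.0818% in the low dose and 0.0652% to 0.0803% in DMSO (exact p = 0.257), with PRRX1 at 0. The tissue label is brain, and the 8 glial markers together took 0.00138% to 0.0016% of counts in the low dose and 0.00116% to 0.00197% in DMSO (exact p = 0.8). Of these AQP4, OLIG1, MBP and MOG were at 0 in all 8 libraries, OLIG2, GFAP and ALDH1L1 had 1, 2 and 11 counts in all, and SLC1A2 had 13.4 to 15.8 CPM in the low dose and 11.2 to 19.7 CPM in DMSO. In bulk libraries, fewer cells that express a gene and less RNA per cell cannot be told apart.

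At the low dose 36 genes were called, 25 higher and 11 lower, by the quasi-likelihood test of edgeR at a threshold of 0.05 on p-values adjusted over all tested genes after Benjamini and Hochberg, the source of every adjusted p below unless another is named. That is 0.262% of tested genes, 0.182% higher and 0.0801% lower. Called changes were mostly modest, with a median size of 0.71 on the log2 scale, 9 genes at least 2-fold higher and 2 at least 2-fold lower. In all 36 the 4 low-dose libraries did not overlap the 4 DMSO libraries, which held for 4.62% of tested genes. The test favours genes whose groups lie apart, so that count follows in part from how the 36 were chosen. Without overlap, the direction was also the same within replicates 1 and 3 and within replicates 2 and 4. Libraries with the same replicate number deviated together (correlations of 0.144 to 0.237), so the number was also fitted as a block. With it 260 genes were called (1.89%), 121 higher (0.881%) and 139 lower (1.01%), and these included all 36. Of the 260, 247 had the same sign in 4 of 4 pairs of same-numbered libraries. The blocked test favours genes whose pairs agree, so this count follows in part from how the 260 were chosen. The unblocked count ran from 14 to 30 when 1 library was left out, with 14 without low-dose replicate 3, 18 without low-dose replicate 1 and 22 without DMSO replicate 2 or 4. With the block that count ran from 119 (without low-dose replicate 3) to 317 (without DMSO replicate 2). Of 42 genes picked for a closer look that passed the blocked but not the unblocked test, 7 kept the blocked call whichever library was left out. Not all of these 42 are named below.

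**Figure D1:**
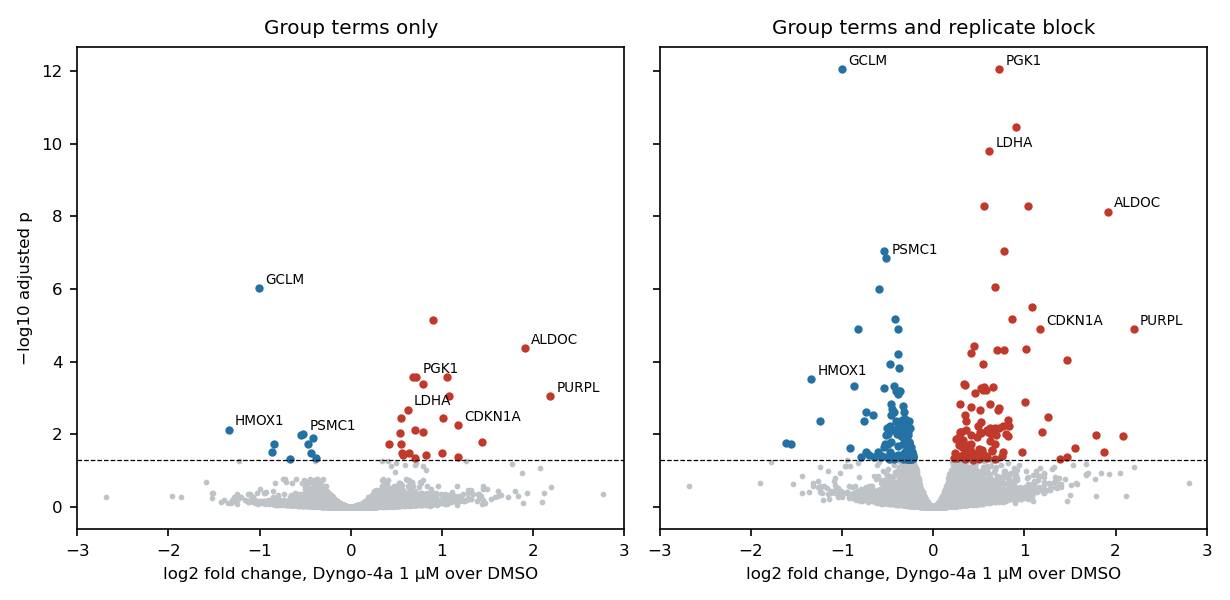
Each point is 1 of 13729 tested genes, with the log2 fold change of Dyngo-4a 1 µM over DMSO on the x axis and −log10 of the adjusted p on the y axis, for group terms alone (left) and with replicate number also fitted (right). Red points rose and blue points fell past the dashed threshold of 0.05, 25 and 11 genes on the left and 121 and 139 on the right.

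ALDOC, PGK1 and LDHA, which are glycolytic enzymes, and PDK1, which steers pyruvate away from the citric acid cycle, rose in the low dose. Of 23 tested genes of the glycolysis list 4 were called higher and 0 lower, against 0.182% of all tested genes called higher. With the block 8 were called higher, against 0.881% of all tested genes. This list and the others below were chosen with earlier results of these data known. Counts above the share of all tested genes may therefore follow in part from that choice. The glycolysis list's median log2 fold change was 0.21 and 20 members were positive, where all tested genes had a median of 0.01. ALDOC, the brain form of aldolase (chromosome 17, 28573115 to 28577264, minus strand, GRCh38), measured 11.4, 8.84, 15.2 and 14.2 CPM (counts at a common library size, TMM-scaled) in low-dose replicates 1 to 4, against 3.43, 3.26, 2.42 and 3.84 CPM in DMSO replicates 1 to 4. Its lowest low-dose library was more than 2-fold above its highest DMSO library, and the log2 fold change was 1.91 ± 0.26 (SE, adjusted p = 4.18e-05). PGK1, which makes the first ATP of glycolysis, had 240.4, 245, 257 and 292 CPM in the low dose and 134, 150.2, 164 and 179.6 CPM in DMSO. Replicate 1 was the lowest and replicate 4 the highest in each group, the groups did not overlap, and the change was 0.72 ± 0.11 (adjusted p = 0.000266). LDHA, which turns pyruvate into lactate, had 486, 549, 519 and 630.5 CPM in the low dose and 355, 311, 362 and 389.7 CPM in DMSO (0.62 ± 0.11, adjusted p = 0.00206). Replicate 4 was again the highest of each group, and the groups did not overlap.

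PDK1, a kinase that turns off pyruvate dehydrogenase, had 27.2, 28.2, 24.8 and 24.4 CPM in the low dose and 13.9, 17.0, 20.2 and 13.3 CPM in DMSO. The groups did not overlap, and the change of 0.71 ± 0.16 was called (adjusted p = 0.0432) but missed the threshold when any library other than DMSO replicate 3 was left out (adjusted p up to 0.241) and with library sizes alone as scaling (0.0504). GPI, ENO1 and GAPDH, which catalyse other steps of the pathway, measured 0.34, 0.34 and 0.29 and passed with the block (adjusted p = 0.000418, 0.000428 and 0.00146), whichever library was left out, but not without it (0.052, 0.176 and 0.398). GPI was also called without the block by DESeq2 (0.000317), by limma-voom (0.0401) and with library sizes alone (0.019). For GAPDH the groups overlapped, at 4195 to 4922 CPM in the low dose and 3298 to 4634 CPM in DMSO. PGK1, LDHA and GAPDH have processed copies elsewhere in the genome, so that counts could be split among them. ALDOC, PGK1 and LDHA kept their calls when any 1 of the 8 libraries was left out.

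Of 28 tested genes of the hypoxia response list 2 were called higher and 0 lower, against 0.182% of all tested genes called higher. With the block 5 were called higher, against 0.881% of all tested genes. The list's median was 0.15 and 24 members were positive. Leaving out DMSO replicate 3 or 4 took that median to 0.07 or 0.08, and the blocked count was 2 without low-dose replicate 3 or DMSO replicate 3 and 3 without low-dose or DMSO replicate 4. The unblocked count was 1 without low-dose replicate 3 or DMSO replicate 1 or 4. FAM162A had 55.5, 67.7, 73.0 and 57.4 CPM in the low dose and 27.0, 31.8, 23.0 and 39.9 CPM in DMSO. Its groups were well apart, with a change of 1.05 ± 0.15 (adjusted p = 0.000264) that held whichever library was left out. P4HA1, a subunit of the collagen prolyl hydroxylase, had 39.9, 40.1, 46.6 and 29.4 CPM in the low dose and 18.5, 28.6, 23.4 and 20.5 CPM in DMSO. Low-dose replicate 4 lay just above DMSO replicate 2, so the groups did not overlap, and the change of 0.79 ± 0.15 (adjusted p = 0.00862) missed the threshold without low-dose replicate 3 or DMSO replicate 1 or 4 (up to 0.0822). The collagen lysyl hydroxylase PLOD2, the mitophagy receptor BNIP3 and WSB1, part of a ubiquitin ligase, measured 0.62, 0.35 and 0.31 and passed with the block (adjusted p = 0.00665, 0.0302 and 0.00868) but not without it (0.18, 0.257 and 0.425), although PLOD2 did with no low-count filter (0.0422). Their blocked calls were lost in 2, 6 and 5 of 8 fits without 1 library (up to 0.224, 0.264 and 0.0735). The regulators themselves were not called: HIF1A measured 0.01, its partner ARNT 0.11, the oxygen sensor EGLN1 -0.03 and VHL 0.06 (adjusted p = 0.994, 0.906, 0.991 and 0.949).

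**Figure D2:**
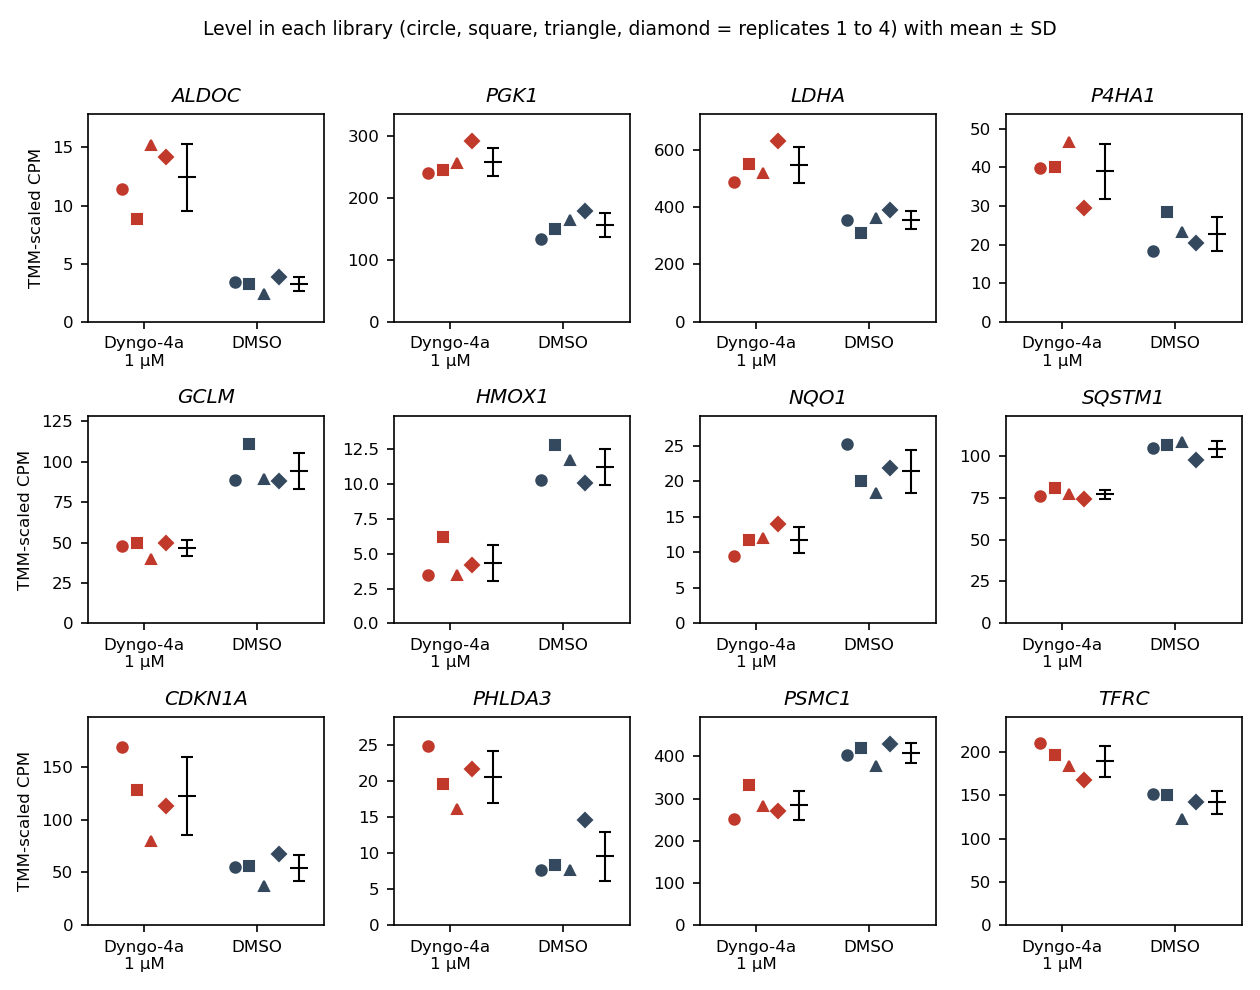
Levels of 12 genes in TMM-scaled CPM (y axis, from 0), with the Dyngo-4a 1 µM libraries left of the DMSO libraries in each panel, a symbol for each replicate number and a horizontal mark with whiskers for the mean ± SD of 4 libraries. In all 12 panels the groups do not overlap, from ALDOC at 8.84 to 15.2 CPM in the low dose and 2.42 to 3.84 CPM in DMSO, to TFRC at 168 to 210.2 CPM in the low dose and 123 to 151 CPM in DMSO.

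The NRF2 targets GCLM, HMOX1, NQO1 and SQSTM1 fell. Of 26 tested members of the NRF2 list 0 were called higher and 4 lower, against 0.0801% of all tested genes called lower. With the block 6 were called lower, against 1.01% of all tested genes. The list's median was -0.17, or -0.08 without DMSO replicate 2, and 19 members were negative. The unblocked count was 1 without low-dose replicate 1 or 3 and 2 without DMSO replicate 1 or 2, and the blocked count ran from 4 to 6. GCLM (chromosome 1, 93885205 to 93909456, minus strand, GRCh38) had 48.1, 49.9, 39.6 and 49.8 CPM in the low dose and 88.9, 111, 89.1 and 88.4 CPM in DMSO. The highest low-dose library lay far below the lowest DMSO library, and the change of -1.003 ± 0.111 had the smallest adjusted p of all genes, 9.59e-07. HMOX1, which breaks down haem and frees its iron, had 3.45, 6.15, 3.49 and 4.18 CPM in the low dose and 10.3, 12.8, 11.7 and 10.1 CPM in DMSO. Replicate 2 was the highest of each group, without overlap, and the change of -1.34 ± 0.26 (adjusted p = 0.0073) missed the threshold without low-dose replicate 1 or 3 (up to 0.0546).

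NQO1, a quinone reductase, had 9.50, 11.7, 11.98 and 14.0 CPM in the low dose and 25.3, 20.1, 18.3 and 21.9 CPM in DMSO. SQSTM1, the autophagy receptor p62, had 75.8, 80.6, 76.9 and 74.2 CPM in the low dose and 104, 106, 108 and 97.3 CPM in DMSO. Neither gene overlapped between groups, with changes of -0.86 ± 0.19 and -0.43 ± 0.10 (adjusted p = 0.031 and 0.0318). Both calls depended on single libraries: NQO1 kept its call only without low-dose replicate 4 or DMSO replicate 3, and SQSTM1 only without low-dose replicate 2 or DMSO replicate 4 (adjusted p up to 0.165 and 0.131), while with the block both held in each such fit. NQO1 also missed the threshold with limma-voom (0.0553) and SQSTM1 with library sizes alone (0.0599). The malic enzyme ME1 and the peroxiredoxin PRDX1 measured -0.55 and -0.24 and passed with the block (adjusted p = 0.0415 and 0.0382, against 0.473 and 0.551 without it). ME1 lost that call in 7 and PRDX1 in 6 of 8 blocked fits without 1 library (up to 0.308 and 0.169), and PRDX1 also missed it with the block on both groups alone (0.0507). The catalytic partner of GCLM, GCLC, measured -0.10, the thioredoxin reductase TXNRD1 -0.17, NRF2's own gene NFE2L2 -0.08 and KEAP1 -0.26, none of them called.

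Among 13 tested iron genes TFRC was called higher and HMOX1 lower, where 0.182% and 0.0801% of all tested genes were. TFRC, the transferrin receptor that brings iron into cells by clathrin-dependent endocytosis, had 210.2, 196, 184 and 168 CPM in the low dose and 151, 151, 123 and 143 CPM in DMSO. The groups did not overlap, and the change was 0.42 ± 0.09 (adjusted p = 0.0178). It missed the threshold without low-dose replicate 1, 2 or 3 or DMSO replicate 3 or 4 (up to 0.163) and in a fit of both groups alone (0.0619). The ferritin chains FTH1 and FTL measured -0.03 and -0.17, and the iron regulatory proteins IREB2 and ACO1 -0.01 and -0.02, none called. The list's median was -0.01.

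CDKN1A and SESN1 of the genes that hold the cell cycle, and PHLDA3, EDA2R, RPS27L and PURPL of the death and damage response genes, rose. Of 23 tested arrest genes 2 were called higher and 0 lower (5 higher and 1 lower with the block, median 0.15). Of 33 tested death and damage response genes 4 were called higher and 0 lower (9 and 0 with the block, median 0.21). Over all tested genes 0.182% were called higher and 0.0801% lower, or 0.881% and 1.01% with the block. Without 1 library the blocked counts ran from 2 to 5 for the arrest genes, with 2 without low-dose replicate 2 or DMSO replicate 3 or 4 and 3 without low-dose replicate 3 or 4, and from 7 to 10 for the other list. The unblocked arrest count was 1 without low-dose replicate 1, 2 or 3 or DMSO replicate 4, and the arrest median 0.07 to 0.18. CDKN1A had 169.8, 129, 80.2 and 113 CPM in the low dose and 55.0, 55.9, 37.5 and 67.6 CPM in DMSO. Replicate 3 was lowest in each group, the groups did not overlap, and the change of 1.18 ± 0.19 (adjusted p = 0.00566) missed the threshold only in a fit of both groups alone (0.148). SESN1, a sestrin that restrains growth signalling, had 17.5, 19.7, 15.2 and 11.8 CPM in the low dose and 6.66, 11.8, 10.3 and 4.32 CPM in DMSO. The lowest low-dose and the highest DMSO library were close to level, and the change of 1.00 ± 0.22 (adjusted p = 0.0325) was lost without low-dose replicate 1, 2 or 3 or DMSO replicate 1 or 4 (up to 0.229) and in a fit of both groups alone (0.0776).

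PHLDA3, a repressor of AKT signalling, had 24.8, 19.6, 16.1 and 21.6 CPM in the low dose and 7.61, 8.27, 7.66 and 14.6 CPM in DMSO (1.08 ± 0.18, adjusted p = 0.000891). EDA2R, a receptor of the tumour necrosis factor family, had 17.5, 15.8, 16.8 and 16.4 CPM in the low dose and 9.90, 9.28, 6.45 and 7.36 CPM in DMSO (1.01 ± 0.18, adjusted p = 0.00342). RPS27L, a ribosomal protein paralogue, had 450.0, 453, 415 and 533 CPM in the low dose and 292, 353, 285 and 330.3 CPM in DMSO (0.56 ± 0.10, adjusted p = 0.00342). These 3 genes did not overlap between groups and kept their calls whichever library was left out, although RPS27L shares sequence with RPS27 and their reads may be split. The noncoding RNA PURPL had 4.96, 5.21, 5.45 and 4.18 CPM in the low dose and 1.33, 0.752, 0.403 and 1.601 CPM in DMSO, where 3 counts are worth 0.473 to 0.752 CPM (2.19 ± 0.36, adjusted p = 0.000891, 0.0597 with limma-voom). BTG2 and PLK2 of the arrest list measured 0.79 and 0.76, and FDXR and ZMAT3 of the other list 0.83 and 0.49, and all 4 passed with the block (adjusted p = 0.00975, 0.0295, 0.00396 and 0.00591) but not without it (0.0745, 0.206, 0.0925 and 0.106). BTG2 and FDXR were also called by DESeq2 (0.0328 and 0.0367) and FDXR with no low-count filter (0.00975). Their blocked calls were lost in 4, 6, 1 and 2 of 8 fits without 1 library (up to 0.113, 0.21, 0.0506 and 0.0553), and PLK2 also missed with the block on both groups alone (0.0624). The CDK inhibitor CDKN1B measured -0.26 (0.041 with the block and 0.438 without it), a blocked call lost in 7 of 8 fits without 1 library (up to 0.157).

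The proteasome genes PSMC1, PSMD11 and ADRM1 fell, and most other subunits measured slightly lower. Of 39 tested members 37 were negative, with a median of -0.19. Of these members 0 were called higher and 3 lower, against 0.0801% of all tested genes called lower. With the block 10 members were called lower, against 1.01% of all tested genes. The blocked count ran from 5, without low-dose replicate 3, to 13 without 1 library, and was 6 without low-dose replicate 4 or DMSO replicate 1 or 3. The unblocked count ran from 0, without low-dose replicate 1 or 3, to 4, and was 1 without DMSO replicate 2 and 2 without low-dose or DMSO replicate 4. PSMC1, an ATPase of the 19S base, had 252, 333, 282 and 270.3 CPM in the low dose and 404, 421, 376 and 429 CPM in DMSO. PSMD11, a lid subunit, had 281, 309, 266 and 294 CPM in the low dose and 387, 391.9, 364 and 394 CPM in DMSO. In both genes the highest low-dose library, replicate 2, stayed below every DMSO library, with changes of -0.52 ± 0.10 and -0.42 ± 0.09 (adjusted p = 0.01 and 0.0127). ADRM1, a ubiquitin receptor of the proteasome, had 69.5, 92.0, 74.7 and 71.6 CPM in the low dose and 103, 105, 104 and 114 CPM in DMSO (-0.47 ± 0.10, adjusted p = 0.0178). Leaving out low-dose replicate 1 or 3 ended all 3 calls, as did DMSO replicate 2 for PSMD11 and low-dose replicate 4 or DMSO replicate 2 or 4 for ADRM1 (adjusted p up to 0.112, 0.0929 and 0.152). PSMD14, PSMB1 and the assembly factor POMP measured -0.34, -0.32 and -0.30 and passed with the block (adjusted p = 0.00388, 0.00591 and 0.00377) but not without it (0.208, 0.261 and 0.333). The blocked call of PSMD14 held whichever library was left out, that of PSMB1 was lost without DMSO replicate 1 or 4 (up to 0.0617) and that of POMP without low-dose replicate 3 or DMSO replicate 3 (up to 0.0538).

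Of 21 tested heat shock genes 19 were negative (median -0.22), with 1 called higher and 0 lower. All tested genes had 0.182% called higher and 0.0801% lower. With the block 1 heat shock gene was called higher and 7 lower, against 0.881% and 1.01% of all tested genes. Without 1 library that blocked count of lower calls ran from 3, without low-dose replicate 3 or 4, to 8, and was 4 without DMSO replicate 4. HSPA4L, a nucleotide exchange factor of the HSP110 family, went against its list: it had 58.3, 64.7, 56.2 and 57.4 CPM in the low dose and 40.9, 44.6, 38.5 and 38.9 CPM in DMSO. Its groups did not overlap, and the change of 0.54 ± 0.11 (adjusted p = 0.00888) was lost without low-dose replicate 2 or DMSO replicate 4 (up to 0.0692). The small heat shock protein HSPB1 had 431 to 623 CPM in the low dose and 594 to 816 CPM in DMSO, groups that overlapped, and measured -0.49 (adjusted p = 0.261, 0.00665 with the block and 0.000297 with no low-count filter and no block). HSP90AB1 and the HSP90 partner FKBP4 measured -0.25 and -0.33 (0.433 and 0.299, with the block 0.0068 and 0.00665). Leaving out 1 library ended the blocked call of HSPB1 without low-dose replicate 4 (0.064) and that of FKBP4 without low-dose replicate 3 or 4 or DMSO replicate 4 (up to 0.0827), and never that of HSP90AB1. DNAJB1 measured -0.45, with groups that overlapped (adjusted p = 0.18, with the block 0.00194). Its blocked call held whichever library was left out (up to 0.0483). In the combination against prexasertib DNAJB1 went the other way, at 0.51 (adjusted p = 0.00895). All 8 chaperonin subunits were negative (median -0.09) and 0 were called with or without the block.

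**Figure D3:**
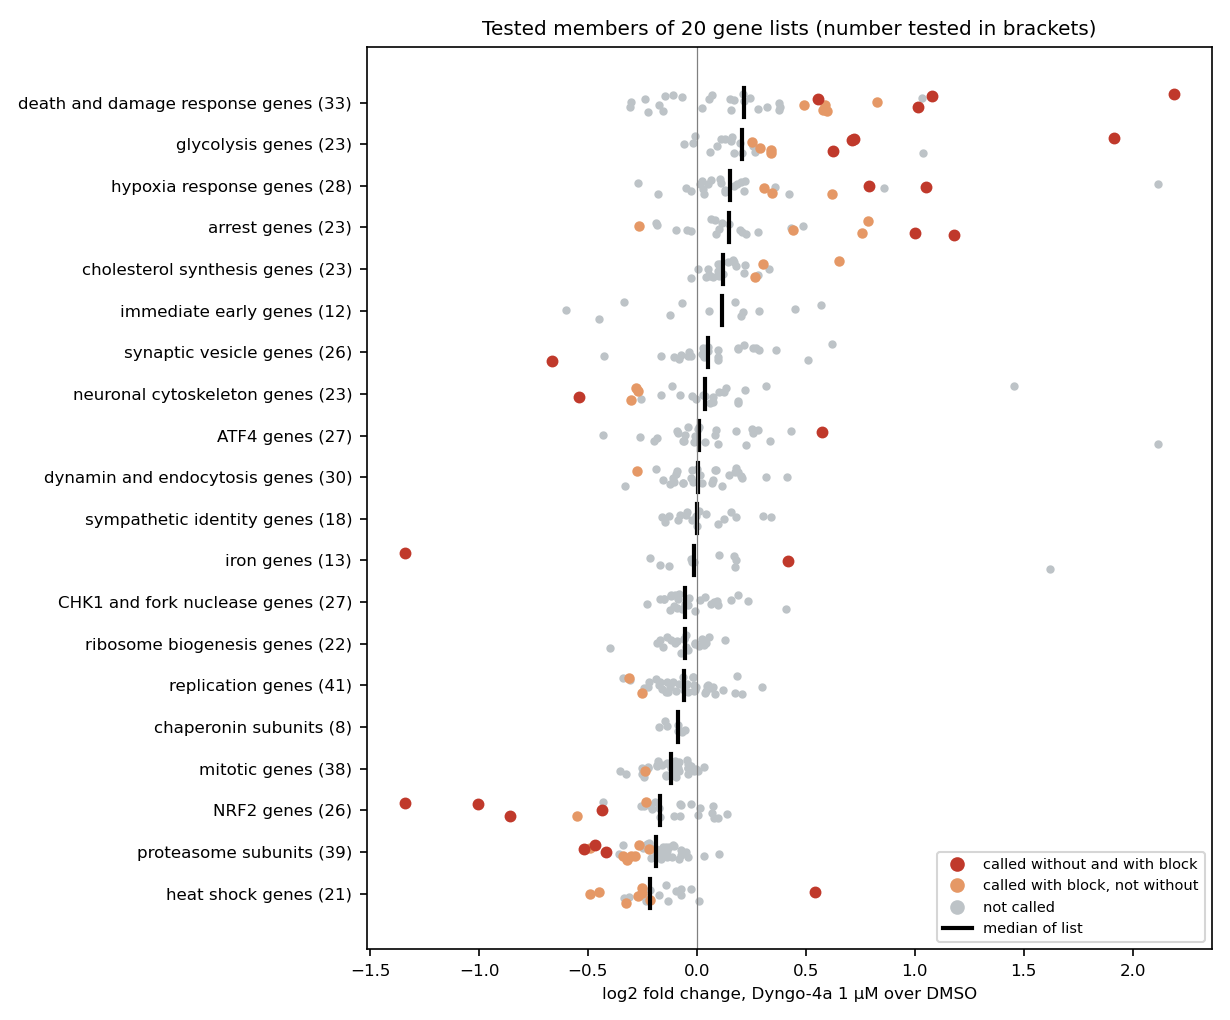
Each point is a tested member of 1 of 20 gene lists (rows, ordered by median, number tested in brackets), placed by its log2 fold change of Dyngo-4a 1 µM over DMSO (x axis), with the black bar at the list's median. Red points were called without and with the block, orange points with it but not without it and grey points in neither, and medians run from 0.21 for the death and damage response genes to -0.22 for the heat shock genes.

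Of the 36 called genes 24 stood in the 20 lists and 12 in none. METTL7A, a methyltransferase of lipid droplets and the endoplasmic reticulum (chromosome 12, 50923472 to 50932517, plus strand), had 87.8, 75.6, 66.7 and 80.3 CPM in the low dose and 35.8, 42.4, 40.3 and 46.7 CPM in DMSO. TXNIP, which binds thioredoxin and curbs glucose uptake, had 98.6, 101, 111 and 111 CPM in the low dose and 69.7, 72.7, 63.3 and 57.5 CPM in DMSO. CYFIP2, a subunit of the actin-regulating WAVE complex, had 62.8, 51.3, 45.5 and 56.0 CPM in the low dose and 29.5, 32.6, 27.8 and 34.7 CPM in DMSO. None of the 3 overlapped between groups, and their changes of 0.91 ± 0.11, 0.68 ± 0.10 and 0.79 ± 0.12 (adjusted p = 7.29e-06, 0.000266 and 0.000403) held whichever library was left out.

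RGS4, which speeds the shut-off of G proteins, had 9.28, 7.73, 11.8 and 14.0 CPM in the low dose and 2.09, 3.76, 4.23 and 5.44 CPM in DMSO (1.44 ± 0.30, adjusted p = 0.0165). MFGE8, a secreted protein that bridges dying cells to phagocytes, had 42.7, 31.4, 40.1 and 32.0 CPM in the low dose and 24.4, 21.6, 24.6 and 19.1 CPM in DMSO (0.70 ± 0.14, adjusted p = 0.0073). DDIT4, which damps mTORC1 and was the 1 called member of the 27 tested ATF4 genes (list median 0.01), had 51.4, 45.6, 43.8 and 45.3 CPM in the low dose and 35.8, 28.6, 27.8 and 32.2 CPM in DMSO (0.58 ± 0.13, adjusted p = 0.0373). All 3 were higher in every low-dose library than in any DMSO library. Their calls were lost without low-dose replicate 3 or 4 or DMSO replicate 1 or 2 for RGS4 (up to 0.121), without low-dose replicate 1 or 3 or DMSO replicate 4 for MFGE8 (up to 0.0713), and, for DDIT4, when any library other than DMSO replicate 1 was left out (up to 0.188). DDIT4 also missed the threshold with limma-voom (0.117).

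The other 5 genes called higher were the lysosomal membrane protein DRAM1 at 1.18 ± 0.27, NOL4 at 0.82 ± 0.19, the sulfotransferase SULT1C4 at 0.64 ± 0.14, the collagen chain COL5A1 at 0.57 ± 0.13 and MARVELD1 at 0.55 ± 0.12, with adjusted p = 0.0404, 0.0364, 0.0331, 0.0331 and 0.0178. DRAM1 had 4.42 to 6.72 CPM in the low dose and 1.52 to 3.84 CPM in DMSO, and NOL4 11.8 to 17.1 CPM in the low dose and 6.77 to 9.13 CPM in DMSO. SULT1C4 had 24.2 to 35.5 CPM in the low dose and 18.3 to 23.8 CPM in DMSO, and COL5A1 77.6 to 95.9 CPM in the low dose and 50.6 to 63.9 CPM in DMSO. MARVELD1 had 51.3 to 58.4 CPM in the low dose and 36.3 to 38.1 CPM in DMSO. The groups did not overlap in any of the 5, although SULT1C4 came within 1 CPM of it. Each of these 5 calls was lost when most single libraries were left out, 6 of 8 for DRAM1, SULT1C4, COL5A1 and MARVELD1 and 7 of 8 for NOL4 (up to 0.243, 0.171, 0.188, 0.0991 and 0.210). COL5A1, SULT1C4, NOL4 and DRAM1 also missed it with limma-voom (0.055, 0.103, 0.0727 and 0.136), and the last 3 in a fit of both groups alone (0.0586, 0.0739 and 0.164). With the block, of these 5 only NOL4 and DRAM1 were lost when a library was left out (up to 0.0683 and 0.0647).

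The 4 remaining genes called lower belong to no common list. MAP1A, a microtubule-associated protein of neurons, had 204, 179.6, 157 and 167 CPM in the low dose and 313, 220.1, 262 and 235 CPM in DMSO (-0.54 ± 0.11, adjusted p = 0.0102). HMGB3, a chromatin protein with copies elsewhere in the genome, had 109 to 137 CPM in the low dose and 150.1 to 183 CPM in DMSO (-0.38 ± 0.09, adjusted p = 0.0448), and SYT2, a calcium sensor of synaptic vesicles, had 17.0 to 19.4 CPM in the low dose and 27.8 to 30.4 CPM in DMSO (-0.67 ± 0.16, adjusted p = 0.0476). The groups did not overlap in any of them. MAP1A was lost without low-dose replicate 3 or DMSO replicate 1 (up to 0.0873), HMGB3 when any library other than low-dose replicate 2 or DMSO replicate 3 was left out (up to 0.29) and SYT2 whichever of the 8 was left out (up to 0.166). HMGB3 and SYT2 also missed the threshold with library sizes alone (0.0654 and 0.0777) and with limma-voom (0.0549 and 0.0554), and HMGB3 with no low-count filter (0.0575) and in a fit of both groups alone (0.121). With the block all 3 held in each fit without 1 library.

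The gene ENSG00000248540, which has no symbol in the reference used (chromosome 15, 74125915 to 74129278, minus strand), had 21.4, 22.9, 15.2 and 25.1 CPM in the low dose and 27.8, 35.6, 33.5 and 55.2 CPM in DMSO. The groups did not overlap, and its change of -0.85 ± 0.17 (adjusted p = 0.0178) was lost without low-dose replicate 1 or 3 or DMSO replicate 4 (up to 0.172) and in a fit of both groups alone (0.0619). It overlaps ISLR2 on the opposite strand, which measured -0.49 (adjusted p = 0.395, 0.00981 with the block). The sources used here do not give the strand setting of the counting, so reads of such a pair cannot be told apart. FAM162A, CYFIP2, RPS27L, PSMC1, ADRM1, SQSTM1 and SYT2 also overlap a tested gene on the opposite strand, and ALDOC and PGK1 one on the same strand. The opposite partners of FAM162A, CYFIP2 and RPS27L, which are WDR5B, ADAM19 and LACTB, measured -0.27, -0.09 and -0.08 (adjusted p = 0.859, 0.978 and 0.959). Values of the partners of PSMC1, ADRM1, SQSTM1, SYT2, ALDOC and PGK1 are not given here, so shared reads remain possible for those genes.

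The gene lists closest to the drugs' named targets held few calls or none, where 0.262% of all tested genes were called, or 1.89% with the block. Of 30 tested dynamin and endocytosis genes 0 were called (median 0.01), and the clathrin heavy chain CLTC measured -0.27 (adjusted p = 0.261, with the block 0.00637 and by DESeq2 without it 0.0252), with the blocked call lost without low-dose replicate 3 (0.103). For the dynamins themselves the values were 0.07 for DNM1, -0.11 for DNM2 and 0.00 for DNM3. Of 27 tested CHK1 and fork nuclease genes 0 were called with or without the block (median -0.05), and CHEK1, MUS81 and EME1 measured 0.23, -0.08 and -0.07. MUS81, an endonuclease of stalled forks that the series title names beside CHK1, had 49.9 ± 4.15 CPM in the low dose and 52.7 ± 6.801 CPM in DMSO (SD, n = 4 each). MYCN, the oncogene amplified in this line, had 1732 ± 132 CPM in the low dose and 1735 ± 149 CPM in DMSO. The signs of DNM1, DNM3, EME1 and MYCN turned when single libraries were left out, as did that of MUS81 with the block, and the adjusted p of these 7 genes was 0.792 to 1.

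Genes of cell division also held few calls, where all tested genes had 0.182% called higher and 0.0801% lower, or 0.881% and 1.01% with the block. Of 38 tested mitotic genes 36 were negative (median -0.12) and 0 were called, or 1 lower with the block, the proliferation marker MKI67 at -0.24 (adjusted p = 0.0427, lost in 4 of 8 blocked fits without 1 library, up to 0.248). The replication list had 0 calls among 41 tested members (median -0.06), and with the block FEN1, a flap nuclease, and MCM7, a helicase subunit, at -0.31 and -0.25 (0.00868 and 0.0276, lost in 3 and 6 of 8, up to 0.0763 and 0.117). Cholesterol synthesis genes were positive in 22 of 23 (median 0.12), with 0 calls and 3 higher with the block. The sympathetic identity genes, 18 tested, had 0 calls in either fit and a median of -0.00. The immediate early genes (12 tested, median 0.12) and the ribosome biogenesis genes (22 tested, median -0.06) also had 0 calls in either fit. Of 23 tested neuronal cytoskeleton genes (median 0.04) and 26 tested synaptic vesicle genes (median 0.05) MAP1A and SYT2 were the only calls, both lower, and with the block MAP1A was joined by the neurofilaments NEFM and NEFH and the tubulin TUBB at -0.28, -0.30 and -0.27, calls lost in 5, 3 and 2 of 8 blocked fits without 1 library (up to 0.275, 0.16 and 0.0686).

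The same drug was added to prexasertib in the combination, and the combination against prexasertib shares no library with the low dose against DMSO. Both contrasts come from 1 fit of 5 groups, however, and share each gene's estimate of the spread, so their calls are not fully independent. The combination against prexasertib had 472 called genes, or 3.44% of those tested, with 329 higher (2.40%) and 143 lower (1.04%). With the replicate block it had 1374. Of the 36 low-dose genes 34 had the same direction there, as did 8397 of all 13729 tested genes. Of the 36, 23 were called in that direction (63.9%), where 2.79% of all tested genes were called in the direction of their low-dose value. None was called the other way. Genes higher in the low dose were called in 20 of 25 cases (80%), with a median of 1.07 in the combination against prexasertib and 0.79 in the low dose against DMSO. Genes lower in the low dose were called in 3 of 11 (27.3%), with medians of -0.24 and -0.54 in the same order. Of the 260 genes called with the block in the low dose, 56 (21.5%) were called in the same direction in the combination and 2 in the other. When each of the 8 combination and prexasertib libraries was left out, an alternative chosen after seeing the data, 20 to 23 of the 36 were called, and LDHA, RGS4 and HMOX1 were the genes lost, all 3 without prexasertib replicate 1. The count over all genes was then 309 to 474, with 309 without combination replicate 1.

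GCLM averaged 58.0 ± 3.82 CPM in the combination and 95.2 ± 8.26 CPM in prexasertib (SD, n = 4 each), a change of -0.71 ± 0.11 (adjusted p = 2.68e-05). METTL7A averaged 177 ± 17.5 CPM in the combination and 52.6 ± 6.62 CPM in prexasertib, and CDKN1A 425 ± 29.3 CPM in the combination and 91.7 ± 10.8 CPM in prexasertib (1.75 ± 0.11 and 2.21 ± 0.18, adjusted p = 3.46e-14 and 1.37e-07). For both genes the combination libraries stood further from prexasertib than the low-dose libraries from DMSO, though the difference between these changes was not tested here. ALDOC, PGK1 and FAM162A measured 1.55, 0.59 and 1.37 (adjusted p = 3.99e-05, 0.000563 and 1.88e-07). The proteasome genes PSMC1, PSMD11 and ADRM1 measured -0.22, -0.19 and -0.28 and were not called (adjusted p = 0.262, 0.253 and 0.104), but were with the block (0.0207, 0.0436 and 0.0161). MAP1A, NOL4 and HMGB3, called in the low dose, measured 0.05, 0.00 and 0.04 in the combination against prexasertib (adjusted p = 0.872, 0.994 and 0.86, with the block 0.729, 0.977 and 0.78).

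**Figure D4:**
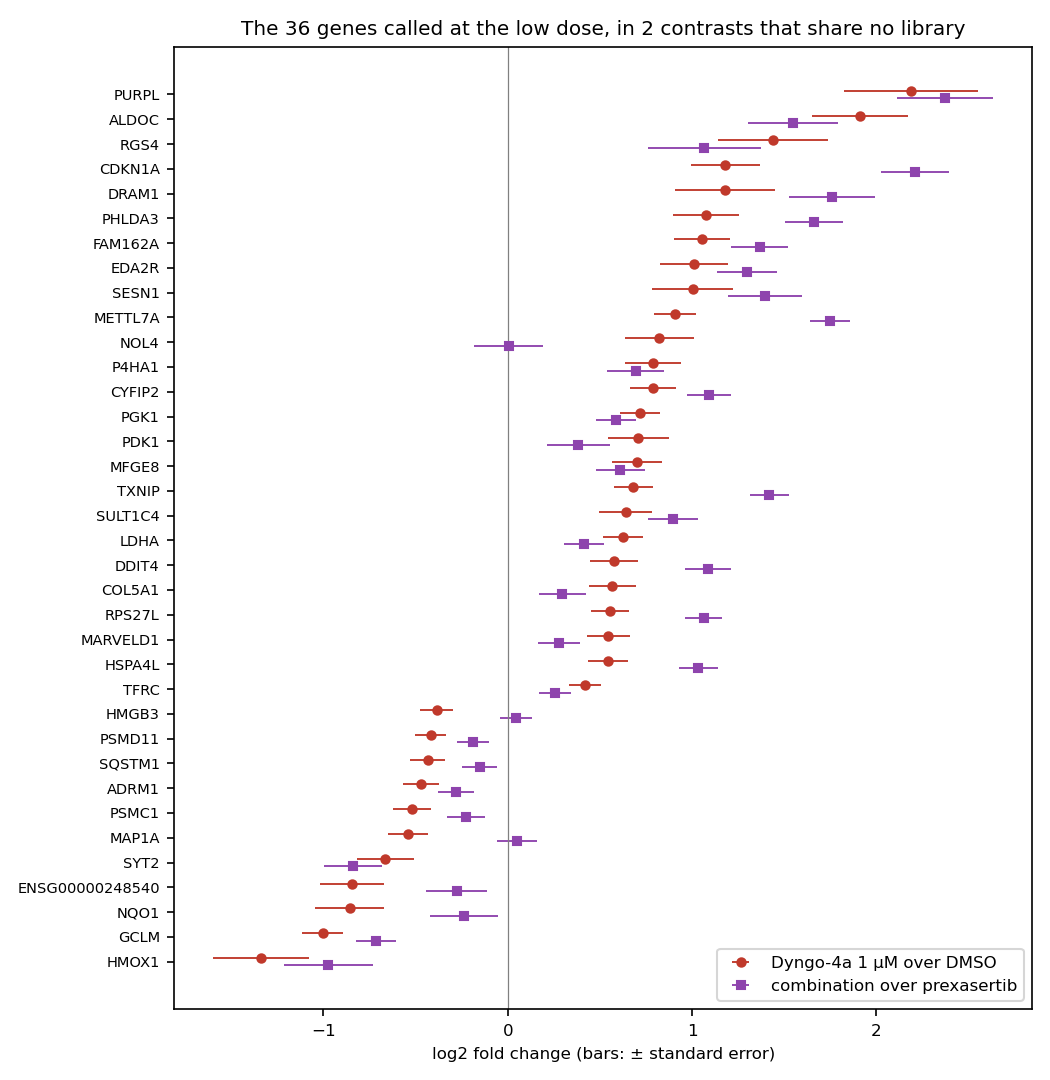
For the 36 genes called in the low dose (y axis), red circles give the log2 fold change ± SE (x axis) of Dyngo-4a 1 µM over DMSO and purple squares that of the combination over prexasertib, from 4 libraries a group. The squares lie on the same side of 0 as the circles for 34 genes, and near 0 for MAP1A, NOL4 and HMGB3.

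Between 1 µM and 2.26 µM the called genes took different courses. The high dose and the low dose are read against the same DMSO libraries, and the test of the high against the low dose uses the low-dose libraries again, so these values are set side by side and are not counted. TXNIP averaged 65.8 ± 6.79 CPM in DMSO, 105 ± 6.62 CPM at 1 µM and 545 ± 82.6 CPM at 2.26 µM (SD, n = 4 each), with 2.37 ± 0.10 between the high and the low dose (adjusted p = 1.55e-19). DDIT4 averaged 31.1 ± 3.66, 46.5 ± 3.33 and 97.5 ± 21.9 CPM and ALDOC 3.24 ± 0.598, 12.4 ± 2.88 and 24.9 ± 6.39 CPM at 0, 1 and 2.26 µM (1.07 ± 0.12 and 1.01 ± 0.21 between the doses, adjusted p = 4.52e-08 and 0.000462). GCLM went down at each step, with 94.3 ± 11.1 CPM in DMSO, 46.9 ± 4.87 CPM at 1 µM and 28.3 ± 4.68 CPM at 2.26 µM (-0.73 ± 0.12 between the doses, adjusted p = 2.25e-05). For these 4 genes the step between the doses had the direction of the low-dose change.

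LDHA and MARVELD1 were lower at the high dose than at the low dose. LDHA averaged 354 ± 32.4 CPM in DMSO, 546 ± 61.7 CPM at 1 µM and 381 ± 33.4 CPM at 2.26 µM, with -0.52 ± 0.11 between the high and the low dose (adjusted p = 0.000578). MARVELD1 averaged 37.5 ± 0.822, 54.8 ± 3.39 and 28.9 ± 4.85 CPM at the 3 doses, with -0.92 ± 0.12 (adjusted p = 3.63e-07). PGK1 averaged 157 ± 19.7, 259 ± 23.3 and 272 ± 36.8 CPM, and its 0.07 ± 0.11 between the doses was not called (adjusted p = 0.697). RGS4 averaged 3.88 ± 1.39, 10.7 ± 2.76 and 7.14 ± 1.98 CPM (-0.58 ± 0.28, adjusted p = 0.144). CDKN1A averaged 54.0 ± 12.4, 123 ± 37.3 and 171 ± 26.3 CPM (0.47 ± 0.18, adjusted p = 0.07). Prexasertib alone, read against the same DMSO libraries, measured 0.01 for GCLM, 0.47 for ALDOC, 0.11 for PGK1, 0.35 for METTL7A and 0.76 for CDKN1A (adjusted p = 1, 1, 1, 1 and 0.597).

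**Figure D5:**
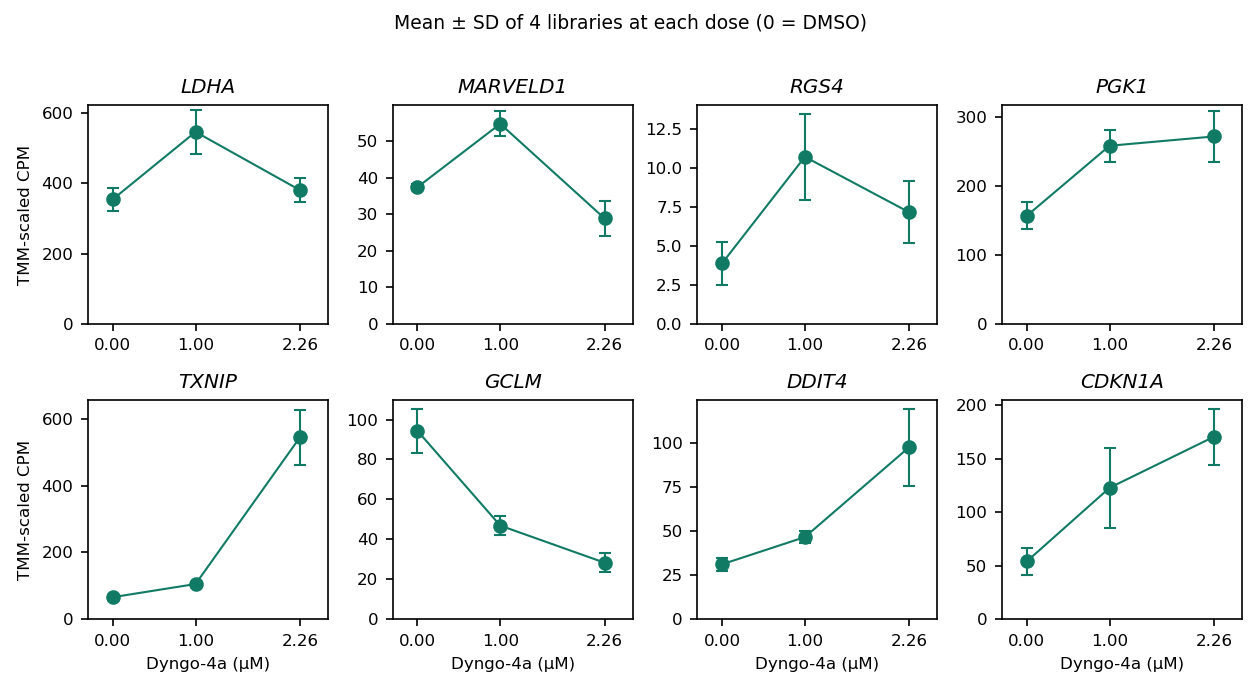
Mean level in TMM-scaled CPM (y axis, from 0) with SD whiskers (n = 4 libraries a point) at 0 µM (DMSO), 1 µM and 2.26 µM Dyngo-4a (x axis) for 8 genes. LDHA peaks at 1 µM with 546 CPM, TXNIP is highest at 2.26 µM with 545 CPM, and GCLM is lowest there with 28.3 CPM.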

How the data were processed

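The libraries were QuantSeq 3′ mRNA libraries with molecular barcodes, made from 200 ng of RNA and read single-end, per the labels' protocols. The deposited values are raw counts for 58787 genes, and all 20 columns were used. The submitters' processing notes name STAR 2.7.2b, the build GRCh38, FastQC 0.11.7, limma 3.50.3 and edgeR 3.36.0 as used by the authors. The sources used here do not give annotation, strand or collapsing of barcodes.

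Groups came from the labels. Genes were filtered with filterByExpr (minimum count 10, minimum total 15), scaled by TMM (factors 0.971 to 1.03 in the 8 libraries) and fitted in 1 model of 5 groups with edgeR 4.0.16 (robust quasi-likelihood test, R 4.3.3), with two-sided p-values, and the Benjamini-Hochberg adjustment ran over all 13729 tested genes. Log2 fold changes carry their standard error, and levels are TMM-scaled CPM. A count of 0 allows up to 3 counts, 0.473 to 0.752 CPM, counting error only. The biological coefficient of variation was 12.5%, or 8.78% with the replicate block. Chi-square per degree of freedom between libraries of a group was 3.24 to 8.46, so none was a copy.

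The replicate number was read as pairing because deviations from the group means correlated at 0.144 to 0.237 for every same number, all above 0.1. Of the 4 low-dose libraries, 3 correlated best with the DMSO library of their own number. Correlations between different numbers are not given here. Pairing comes from this check and not from the labels. Alternatives were library sizes alone, relative log expression factors, other filters, DESeq2 1.42.0, limma-voom (3.58.1), the compared groups alone, the block, a term that set replicates 1 and 3 apart from 2 and 4, and each library left out. The fits were also run on simulated counts. Those counts held no replicate effect, so that run cannot check the block on libraries that share one. The 20 lists held 528 genes, 495 tested. The comparison, lists, alternatives and named genes were chosen with earlier results of these data known. The text names every called gene and the targets' genes. Of the up to 6 called members a list and the 12 largest blocked changes each way, it names only a part. HIF1A, ARNT, EGLN1, VHL, GCLC, TXNRD1, NFE2L2, KEAP1, the ferritins, IREB2, ACO1 and partners on the other strand were added after their values were seen. Promoters are RefSeq (GRCh38.p14) and other coordinates GENCODE 29 (GRCh38). Some marker genes and the results that rest on them are not reported here.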

Additional observations from a re-analysis of the deposited data

Results flagged for a closer look

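In 9 of 170 groups of 4 libraries, 1 library lay far from the others, and chance gives about 1 in 20 such groups. For GCLM these were low-dose replicate 3 at 39.6 CPM, with the others at 48.1 to 49.9, and DMSO replicate 2 at 111 CPM, with the others at 88.4 to 89.1. SULT1C4 in low-dose replicate 4 had 24.2 CPM (others 33.8 to 35.5) and SYT2 in low-dose replicate 2 had 17.0 CPM (others 19.0 to 19.4). PHLDA3 in DMSO replicate 4 had 14.6 CPM, with the others at 7.61 to 8.27. For the blocked calls BNIP3, WSB1, ARHGEF40 and RBM8B, low-dose replicate 3 had 81.7 CPM of BNIP3 (others 60.9 to 64.2), DMSO replicate 4 had 155 CPM of WSB1 (others 193 to 199) and 10.6 CPM of ARHGEF40 (others 12.5 to 12.8), and low-dose replicate 4 had 9.63 CPM of RBM8B (others 15.3 to 16.1).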

How the results depend on the processing

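The count of 36 low-dose genes was 35 with library sizes alone, 36 with relative log expression factors, 37 with the 1 CPM filter and 32 with both groups alone, and it was 62 (32 higher, 30 lower) with no low-count filter, 53 with DESeq2 and 28 with limma-voom. The replicate block gave 260, or 306 with both groups alone, and a term for replicates 1 and 3 against 2 and 4 gave 73. Leaving out 1 library gave 14 to 30, and 119 to 317 with the block. Of the 36, 21 kept their call in every setting with all libraries, 13 without each library and 11 in all of these. For the combination against prexasertib the count of 472 became 683 with DESeq2, 1374 with the block, 1446 with the block and both groups alone, 909 with the replicate term and 309 to 474 without 1 library, and 451 to 515 in the others. The cause of these moves was not tested.

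No called gene changed sign. Uncalled genes did: without 1 library DNM1 ran from -0.1004 to 0.2045 (block -0.0921 to 0.2509), DNM3 from -0.1432 to 0.0692 (block -0.1348 to 0.0735), EME1 from -0.1904 to 0.0337 (block -0.1867 to 0.0827), MYCN from -0.0496 to 0.0515 (block -0.0338 to 0.0232) and MUS81 with the block from -0.1756 to 0.0219. MYCN was 0.016 with library sizes alone, and DNM3 -0.0024 with relative log expression factors, -0.0121 with no filter, -0.0029 with the 1 CPM filter, -0.002 with DESeq2, -0.0272 with limma-voom and -0.0058 with the block. PURPL lies near the floor in DMSO, so its fold change depends on few counts.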

Other observations

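With the replicate block 194 of the 260 called genes stood in no list. The 10 of these with a symbol, no call without the block and the smallest blocked p were taken by a rule set after the values were seen, and no group of genes was tested among them. Log2 fold changes here are those of the blocked fit. Higher in the low dose were the noncoding RNA MEG3 at 0.45 (191 ± 26.2 CPM in the low dose and 140 ± 15.2 CPM in DMSO, SD, n = 4 each), LRRN3 at 0.65 and the growth factor PGF at 0.53 (edgeR's quasi-likelihood test with the block, adjusted p = 3.72e-05, 0.000499 and 0.00054). Lower were the chromatin protein MORF4L1 and the translation factor EIF5, both at -0.39, and the actin gene ACTB at -0.38 (adjusted p = 1.25e-05, 6e-05 and 0.000149 with the block). EIF5 had 289 ± 23.6 CPM in the low dose and 379 ± 29.98 CPM in DMSO, and MORF4L1 484 ± 63.3 CPM in the low dose and 636 ± 94.6 CPM in DMSO, with groups that overlapped for MORF4L1. The uncoupling protein UCP2, ARHGEF25, HCFC1 and the small nuclear RNA gene RNVU1-25 measured -0.41, -0.54, -0.37 and -0.59 (adjusted p = 0.000638, 0.000537, 0.000641 and 1e-06 with the block). All 10 blocked calls held whichever library was left out. Without the block MEG3 and EIF5 were also called by DESeq2 (0.048 and 0.00875), and these and MORF4L1, ACTB, ARHGEF25, PGF and UCP2 with no low-count filter.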
